A study of Mus musculus with 2 samples.

Results

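The nuclear genes of respiratory complexes II, III, IV and V and of cytochrome c were described in long-read RNA sequencing of mouse adrenal gland. Genes were taken by name from the annotated, non-pseudogene rows of both libraries' tables. The names were Sdha to Sdhd for complex II, those starting in Uqcr together with Cyc1 for complex III, Cycs for cytochrome c, Cox4 to Cox8 for complex IV, and Atp5 for complex V. This gave 48 gene identifiers under 47 names, out of 17707 annotated genes with reads. Atp5o is listed under 2 identifiers, and the second held 2 reads in replicate 1 and 1 read in replicate 2. Cox7b2 and Cox8c fit the naming pattern and had 0 reads in both libraries.

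The series holds 1 group of 2 libraries, each made from 1 µg of total RNA. The tissue is adrenal gland, the animals are female mice of the strain B6CASTF1/J, and their age is given as 18 to 20 months. B6CASTF1/J is an F1 hybrid of a laboratory and a wild-derived strain. No treatment, other age, other sex or other genotype stands beside them, so the comparisons concern levels, paralogs and isoforms, and how far the libraries differed. In the labels the libraries differ in biosample but share a donor entry, and their animal numbers differ in one field and are the same in another. Whether they come from separate animals is therefore not settled. A difference between the libraries may lie in the animal, in the tissue that was taken or in technical steps. Except for those of edgeR's exact test, p-values between libraries cover counting error only and say nothing of the spread between animals. Replicate 1 held 1412947 reads on annotated mouse genes and replicate 2 held 933963. In this assay a read stands for a transcript molecule copied into cDNA, so a gene's level is its number of reads. Levels are given as CPM, reads per 1000000 reads on annotated genes. Levels of different genes are also compared per kb, as CPM divided by the length of the gene's most abundant annotated transcript. Where a read stands for a molecule of any length, this division raises genes with short transcripts, so both scales are given. Genes with no reads on an annotated transcript have no value per kb and are left out of shares and medians per kb. Among the members these are Atp5f1 and the second Atp5o identifier. Ratios are replicate 1 over replicate 2.

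The respiratory chain passes electrons from fuels to oxygen and stores the energy as a proton gradient across the inner mitochondrial membrane. Complex II, succinate dehydrogenase, feeds electrons from the citric acid cycle into ubiquinone. Complex III hands them to the small carrier cytochrome c, complex IV passes them to oxygen, and complex V, ATP synthase, lets protons flow back and makes ATP. Complex II is encoded entirely in the nucleus, whereas complexes III, IV and V each hold subunits encoded in mitochondrial DNA. In adrenal cortex, mitochondria also hold the enzymes that cut cholesterol and finish the synthesis of corticosterone, and several subunits of complex IV have paralogs used in muscle, brown fat, lung or testis.

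The 48 genes together took 38384 reads in replicate 1 and 24606 reads in replicate 2. They made up 2.72% and 2.63% of all gene reads, a mean of 2.68 ± 0.058% (SD, n = 2). Complex V held the largest part of them, 43.6% of the members' reads in replicate 1 and 39.98% in replicate 2, which came to 1.18% and 1.05% of gene reads. Complex IV held 0.632% and 0.737%, and complex III held 0.538% and 0.520%. The 4 genes of complex II held 0.327% and 0.295%, and Cycs held 0.0335% and 0.0297%. By summed reads, complexes II and V took the larger share in replicate 1, and complex IV took the larger share in replicate 2. In complex V, Atp5b and Atp5a1 gave 5591 and 4931 of 16743 reads in replicate 1, and 2987 and 2437 of 9838 in replicate 2. The median log2 ratio of the 17 tested complex V genes was -0.075, so the sum does not stand for most of its genes. Most subunits of complex IV have short transcripts, and on the per-kb scale complex IV came to 1.94% in replicate 1 and 2.19% in replicate 2, against 1.78% and 1.69% for complex V. The order of complexes IV and V therefore depended on the scale, whereas complex III stayed above complex II on both. Per kb, complex III held 0.926% in replicate 1 and 0.923% in replicate 2, and complex II held 0.305% and 0.271%.

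**Figure D1:**
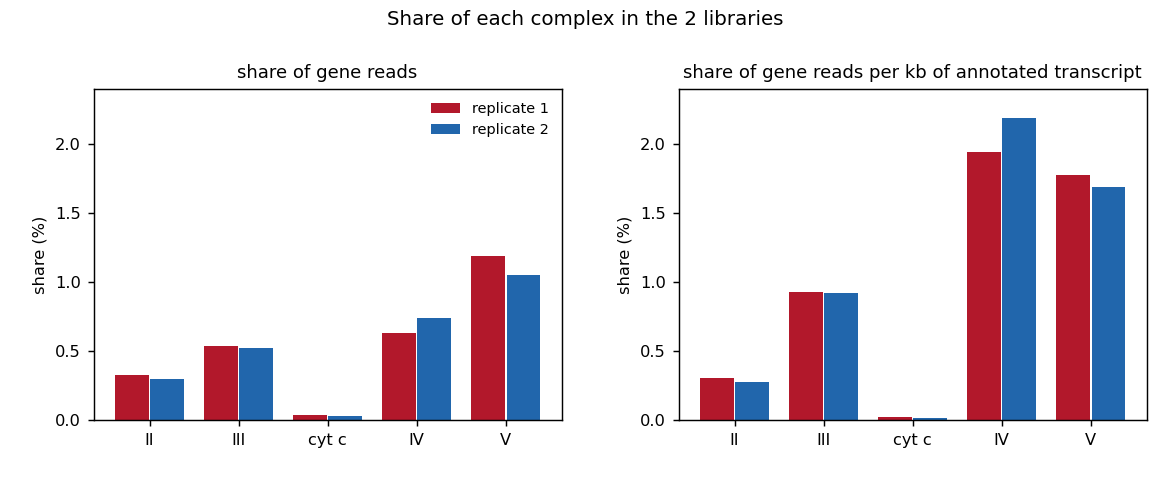
Share of annotated gene reads taken by each complex, as a percentage of reads (left) and of reads per kb of annotated transcript (right), with 1 bar for each library. Complex V was highest by reads, at 1.18% in replicate 1 and 1.05% in replicate 2, and complex IV was highest per kb, at 1.94% and 2.19%.

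Members ranged widely in level. By mean CPM, 6 of the 100 genes with most reads were members, and 14 were members when genes were ranked per kb. Atp5b, the catalytic beta subunit of ATP synthase, was the highest, at rank 12 of all annotated genes by CPM. Next came Atp5a1, the alpha subunit, at rank 17, followed by Sdha, Cox4i1, Uqcrc1 and Uqcrq. At the low end, Cox4i2 had 1 read in replicate 1 and 2 in replicate 2, and Cox6b2 had 5 and 2 reads. With 3 reads as the upper limit for a gene at 0, or 2.12 CPM in replicate 1 and 3.21 CPM in replicate 2, these paralogs stood near the limit of detection. Intervals are exact 95% Clopper-Pearson intervals, and these and the limits cover counting error only.

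**Figure D2:**
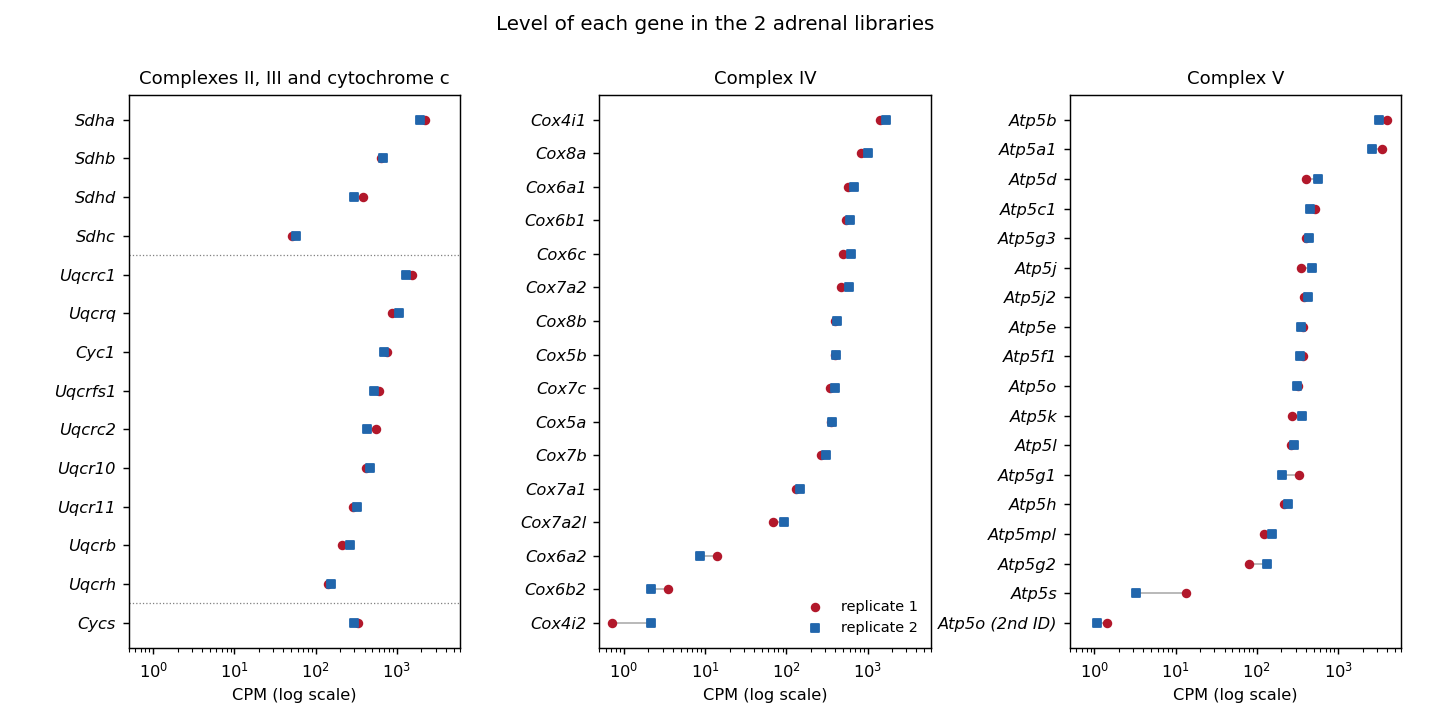
Level of each of the 48 genes in replicate 1 (circles) and replicate 2 (squares), in CPM on a logarithmic axis, ordered by mean level within complex II, complex III, cytochrome c, complex IV and complex V. Atp5b stood at 3957 CPM in replicate 1 and 3198 CPM in replicate 2, and most other members lay between 100 and 1000 CPM.

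In complex II the catalytic flavoprotein gene Sdha led and the membrane anchor gene Sdhc was far below. Sdha (mm10, chromosome 13, 74322254 to 74350280, minus strand) had 3123 reads in replicate 1 and 1804 in replicate 2, or 2210 and 1932 CPM. Sdhb, the iron-sulfur subunit that passes electrons on, had 893 and 625 reads, or 632 and 669 CPM. Sdhd, the other membrane anchor, had 536 and 274 reads, or 379 and 293 CPM. Sdhc had 73 and 53 reads, or 51.7 and 56.7 CPM. The 4 proteins stand in equal numbers in the enzyme, but their transcripts did not. Sdha exceeded Sdhb 3.497-fold in replicate 1 and 2.89-fold in replicate 2 by CPM, and 1.25-fold per kb. Sdha exceeded Sdhc 42.8-fold and 34.04-fold by CPM, and 41.8-fold per kb. The main annotated transcript of Sdhc, Sdhc-202, carried 54.8% of the gene's reads in replicate 1 and 49.1% in replicate 2, and unannotated single-exon models carried 24.7% and 33.96%.

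In complex III, levels spanned 9.57-fold by mean CPM and 3.94-fold per kb. Uqcrc1, a core subunit on the matrix side (chromosome 9, 108936633 to 108949623, plus strand), had 2198 reads in replicate 1 and 1209 in replicate 2, or 1556 and 1294 CPM. Its partner core subunit gene Uqcrc2 had 784 and 401 reads, so that Uqcrc1 exceeded it 2.80-fold and 3.01-fold by CPM and 3.32-fold per kb. Uqcrq, which encodes a small subunit bound near cytochrome b, had 1234 and 978 reads, or 873 and 1047 CPM. Cyc1, the cytochrome c1 subunit that delivers electrons to cytochrome c, had 1065 and 639 reads, or 754 and 684 CPM. Uqcrfs1, the Rieske iron-sulfur subunit, had 842 and 491 reads. Per kb the order changed: the short transcript of Uqcr10 led at 1022 CPM per kb, and Uqcrc1 stood at 862 CPM per kb. The lowest by CPM was the hinge subunit gene Uqcrh, with 203 and 144 reads. Cycs, the somatic cytochrome c gene, had 473 and 277 reads, or 335 and 297 CPM. Its testis counterpart Cyct had 0 reads in both libraries.

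In complex IV, Cox4i1 led on both scales. Cox4i1, the most widely used form of subunit 4 (chromosome 8, 120668222 to 120674207, plus strand), had 2004 reads in replicate 1 and 1594 in replicate 2, or 1418 and 1707 CPM, and averaged 2097 CPM per kb. Cox8a, a small membrane-spanning subunit, had 1158 and 937 reads, or 820 and 1003 CPM. Cox6a1, the general form of subunit 6a, had 821 and 638 reads, or 581 and 683 CPM. All 3 had the lower CPM in replicate 1. The subunit 5 genes Cox5a and Cox5b stood close in the libraries, at 358 and 363 CPM for Cox5a and at 403 and 409 CPM for Cox5b. Cox7a2l, which encodes a factor that joins complexes III and IV into supercomplexes, had 97 and 87 reads. The median of the 16 complex IV genes was 388 CPM and 622 CPM per kb. For complex V the medians were 335 CPM and 475 CPM per kb.

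In complex V the catalytic head led. Atp5b (chromosome 10, 128083273 to 128090391, plus strand) had 5591 reads in replicate 1 and 2987 in replicate 2. Atp5a1 (chromosome 18, 77773729 to 77782869, plus strand) had 4931 and 2437 reads, or 3490 and 2609 CPM. Each head holds equal numbers of alpha and beta subunits, and Atp5b exceeded Atp5a1 1.13-fold in replicate 1 and 1.23-fold in replicate 2 by CPM, and 1.51-fold per kb. The genes of the central stalk were lower. Atp5c1, the gamma subunit that turns inside the head, had 725 and 422 reads, or 513 and 452 CPM. Atp5b exceeded Atp5c1 7.71-fold and 7.08-fold by CPM and 4.51-fold per kb. Atp5d, the delta subunit of the stalk, had 570 and 531 reads, or 403 and 569 CPM, and was the third by mean CPM. Atp5e, the epsilon subunit, had 520 and 323 reads. The genes of the peripheral stalk, Atp5f1, Atp5h, Atp5j and Atp5o, lay between 228 CPM for Atp5h and 414 CPM for Atp5j on average. Of the small membrane subunit genes, Atp5j2, Atp5k, Atp5l and Atp5mpl averaged between 139 CPM for Atp5mpl and 399.9 CPM for Atp5j2. Atp5s, which encodes an associated factor rather than a core subunit, had 19 and 3 reads.

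The tissue-restricted paralogs of complex IV differed widely in their level. Cox8b, a form of subunit 8 known from heart, skeletal muscle and brown fat, was abundant. It had 569 reads in replicate 1 and 390 in replicate 2, which were 569 of 1727 and 390 of 1327 reads of the Cox8 genes. Its share was thus 32.9% (interval 30.7 to 35.2%) against 29.4% (interval 26.9 to 31.9%). Per kb, Cox8b stood at 1139 CPM per kb and Cox8a at 1657 CPM per kb. Cox7a1, the corresponding form of subunit 7a, had 184 and 138 reads, 21.8% and 20.1% of the reads of Cox7a1 and Cox7a2, with 354 CPM per kb for Cox7a1 and 801 CPM per kb for Cox7a2. Cox6a2, the muscle form of subunit 6a, was scarce, with 20 and 8 reads and 2.38% and 1.24% of the reads of its pair. The shares of Cox8b, Cox7a1 and Cox6a2 did not pass a two-sided Fisher's exact test between libraries, adjusted over the 10 paralog shares (adjusted p = 0.0929 for Cox8b, 0.749 for Cox7a1 and 0.251 for Cox6a2).

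The other paralogs were at the limit of detection. Cox4i2, known from lung, held 0.0499% of its pair's reads in replicate 1 and 0.125% in replicate 2. The testis forms Cox6b2, Cox7b2 and Cox8c had 5 and 2 reads, 0 reads, and 0 reads. With 3 reads as the limit for a count of 0, the share of Cox7b2 is up to 0.798% in replicate 1 and 1.03% in replicate 2. That of Cox8c is up to 0.174% and 0.226%. The exact intervals end higher, at 0.976% and 1.26% for Cox7b2 and at 0.213% and 0.278% for Cox8c. The coding sequences of Cox6b1 and Cox6b2 are alike at 66.3% of aligned bases, and those of Cox4i1 and Cox4i2 at 70.5%. Cox7b2 and Cox8c were not aligned.

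**Figure D3:**
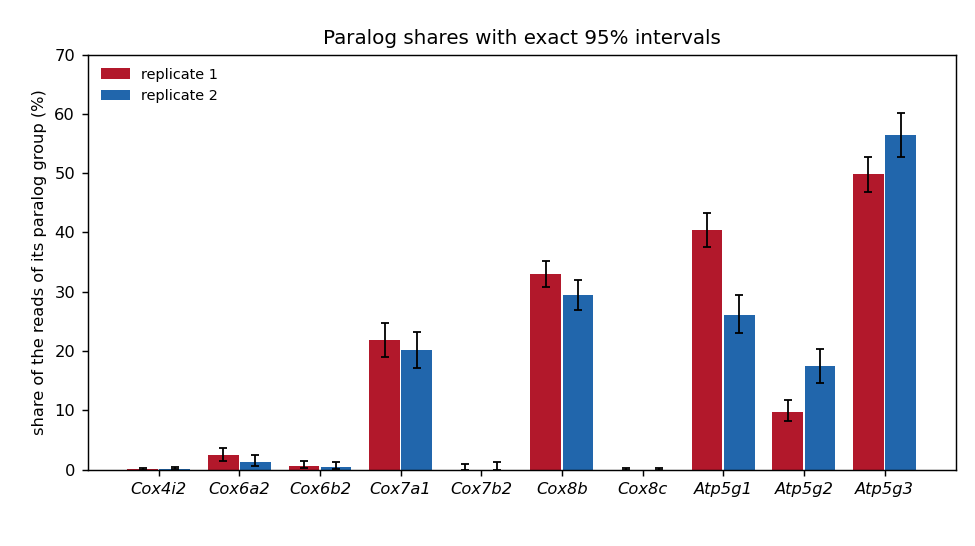
Share of the reads of each paralog group on the named gene, in percent, in replicate 1 (left bar) and replicate 2 (right bar), with exact 95% binomial intervals. Cox8b reached 32.9% in replicate 1 and 29.4% in replicate 2, whereas Cox7b2 and Cox8c had 0 reads.

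Markers of the tissues in which these paralogs are known were read beside them. Calls are from an exact binomial test between libraries at an adjusted p of 0.05. By it 6.21% of all genes tested were higher in replicate 1, and 27.6% of genes with 500 or more reads. Of 14 skeletal muscle genes 11 were tested and 10 were higher in replicate 1, and the list summed to 1260 reads in replicate 1 and 6 in replicate 2. Acta1 had 333 and 0 reads and Ckm had 240 and 0. The list of 8 heart and slow muscle genes summed to 24 and 2 reads, and the 1 gene tested, Myh7, was higher with 12 and 0 reads. Of the others, Myl3 had 7 and 0 reads and Tnnc1 4 and 1, whereas the heart genes Myh6, Tnnt2 and Actc1 had 0 reads in both libraries. Of 8 brown fat genes, all tested, 5 were higher in replicate 1, the list summed to 4987 and 1590 reads, and Ucp1, the uncoupling protein gene that defines brown fat, had 2384 and 562 reads, a 2.87-fold higher level in replicate 1. Over the same libraries Cox8b had a ratio of 0.986 (interval 0.865 to 1.12) and Cox7a1 a ratio of 0.901 (interval 0.719 to 1.13). Cidea, another gene of brown fat, was also close in the libraries, at 900 and 595 reads and a ratio of 1.02 (interval 0.921 to 1.14). The list of 6 testis and germ cell genes summed to 0 and 1 reads. The list of 6 lung and smooth muscle genes summed to 224 and 92 reads, and 2 of its 3 tested genes were higher in replicate 1. Of its lung genes, Sftpc had 3 and 5 reads and Sftpb had 0 in both libraries. Whether Cox8b and Cox7a1 transcripts came from adrenal cells or from fat attached to the gland was not tested. In bulk RNA, fewer cells of a type and less RNA per cell cannot be told apart. The labelled tissue showed its own markers, with 102124 and 66667 reads on 6 cortex genes and 16942 and 8785 reads on 5 medulla genes.

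The c subunit, the ring that turns in the membrane part of ATP synthase, is encoded by 3 genes whose mature proteins are the same in mammals while their targeting sequences differ. The last 60 coding bases before the stop codon are shown because they hold the same part of the ring in all 3 genes, from GENCODE M21 transcripts on mm10, all on the minus strand. Capitals mark the 18 positions at which the 3 genes are not all alike, of which 14 are the third base of a codon. The stretches lie at chr11:96073107-96073166 for Atp5g1, chr15:102663017-102663076 for Atp5g2 and chr2:73908596-73908655 for Atp5g3.
Atp5g1: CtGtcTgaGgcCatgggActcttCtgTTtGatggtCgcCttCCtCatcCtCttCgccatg
Atp5g2: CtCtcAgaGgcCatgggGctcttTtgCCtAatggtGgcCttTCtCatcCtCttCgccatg
Atp5g3: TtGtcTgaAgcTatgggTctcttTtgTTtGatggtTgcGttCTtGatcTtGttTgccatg

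Of the reads of the c subunit genes, Atp5g3 held 49.8% in replicate 1 and 56.5% in replicate 2, Atp5g1 held 40.4% and 26.1%, and Atp5g2 held 9.78% and 17.4%. Atp5g3 was highest in both libraries by reads, and per kb the order was the same, at 587 CPM per kb for Atp5g3, 444 CPM per kb for Atp5g1 and 146 CPM per kb for Atp5g2. The 3 shares differed between libraries by the two-sided Fisher's exact test (adjusted p = 2.15e-09 for Atp5g1, 1.11e-05 for Atp5g2 and 0.0166 for Atp5g3). They have a common total, so a rise in 1 share lowers the others, and these are not 3 separate differences. The counts were 463 and 188 reads for Atp5g1, and 112 and 125 reads for Atp5g2. An unspliced model held 46 and 72 of the Atp5g2 reads. The coding sequences are alike at 78.8% of aligned bases for Atp5g1 and Atp5g2 and at 72.6% for Atp5g2 and Atp5g3.

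Several members have processed pseudogenes, copies of their mRNA inserted elsewhere in the genome, and reads of the gene and of a near-identical copy may be divided between them. The copies were looked at after the members' values were seen. Of 72 annotated pseudogenes alike to the main transcript of 22 members at 90% or more of aligned bases, 13 had reads, 402 in replicate 1 and 371 in replicate 2. Gm12338, whose 192 bases match Cox7c, a small subunit of complex IV, at 100% of bases, had 196 and 190 reads, whereas Cox7c itself had 484 and 372. Gm10175, whose 441 bases match Atp5g2 at 100% of bases, had 80 and 92 reads, against 112 and 125 for Atp5g2. For Cox7c the copies came to 41.1% and 51.1% of the gene's own reads, for Atp5g2 to 87.5% and 79.2%, for Cox7a2l to 28.9% and 19.5%, and for Atp5l to 9.65% and 15.4%. The levels of these 4 genes are therefore uncertain. With the copies' reads added to their genes, Atp5g3 held 45.2% of the reads of the c subunit genes in replicate 1 and 49.5% in replicate 2, Atp5g1 held 38.1% and 23.3%, and Atp5g2 held 16.7% and 27.3%. The order of Atp5g1 and Atp5g2 then turned in replicate 2, with 191 reads for Atp5g1 and 224 for Atp5g2.

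The libraries were compared gene by gene with an exact two-sided binomial test on TMM-scaled counts, adjusted by the Benjamini-Hochberg method over all 11068 genes with 10 or more reads. It compares these libraries rather than conditions, and only counting error enters its p-values. Of 45 tested members, 7 were higher in replicate 1 (15.6%) and 9 were lower (20%). Of all genes tested, 6.21% were higher and 6.2% lower. Members have more reads than most genes, with a median of 927 reads against 68, and deep genes pass this test more often. Among genes with 500 or more reads, 27.6% were higher and 17.9% lower, and among the 37 members of that depth 18.9% were higher and 21.6% lower. In edgeR's exact test the scatter was estimated across genes from these same libraries, with a common coefficient of variation of 21.5%. The differences under test thus set the scatter, so that this test can call few genes and a lack of calls says little. It put 27 genes past an adjusted p of 0.05, 0.244% of those tested. These included 0 members, and 1 member had an unadjusted p under 0.05 by edgeR, against 22 by the binomial test. The median log2 ratio was -0.08 for the 45 members and 0.02 for all genes tested.

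The 7 members higher in replicate 1 were Sdha and Sdhd of complex II, Uqcrc1 and Uqcrc2 of complex III, and Atp5a1, Atp5b and Atp5g1 of complex V. Atp5a1 was 1.37-fold higher (interval 1.30 to 1.44, adjusted p = 3.35e-35) and Atp5b was 1.27-fold higher (interval 1.21 to 1.32, adjusted p = 1.7e-23). Atp5g1 had the widest ratio of the 7, 1.66-fold (interval 1.40 to 1.98, adjusted p = 7.6e-08). The core subunit genes of complex III, Uqcrc1 and Uqcrc2, were also higher, Uqcrc1 by 1.23-fold (interval 1.15 to 1.32) and Uqcrc2 by 1.32-fold (interval 1.17 to 1.49). In complex II, Sdha was 1.17-fold higher (interval 1.10 to 1.24) and Sdhd 1.32-fold higher (interval 1.14 to 1.54, adjusted p = 0.00257), while Sdhb had a ratio of 0.966 (interval 0.871 to 1.07).

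Of the 9 members lower in replicate 1, those of complex IV were Cox4i1, Cox8a, Cox6c and Cox7a2, of complex III Uqcrq, and of complex V Atp5d, Atp5j, Atp5k and Atp5g2. Atp5g2 was 1.65-fold lower (interval 1.27 to 2.15, adjusted p = 0.00218), Atp5d 1.38-fold lower (interval 1.22 to 1.55, adjusted p = 4.79e-06) and Atp5j 1.32-fold lower (interval 1.16 to 1.51, adjusted p = 0.000559). Atp5j encodes a coupling factor of the peripheral stalk and had 497 reads in replicate 1 and 444 in replicate 2. Atp5k, a small membrane subunit gene, was 1.30-fold lower (interval 1.12 to 1.51) with 381 and 334 reads. Cox4i1, Cox8a, Cox6c, Cox7a2 and Uqcrq were 1.17-fold to 1.23-fold lower, the widest being Cox7a2 with 661 and 549 reads (interval 1.10 to 1.38). Complex IV had 4 lower and 0 higher of 14 tested members, and complex V had 4 lower and 3 higher of 17. Complex III had 1 lower and 2 higher of 9, and complex II had 0 lower and 2 higher of 4. Of all genes with 500 or more reads, 17.9% were lower and 27.6% higher. The complex IV genes had a median transcript length of 631.5 nt. For all genes with 50 or more reads the median log2 ratio was -0.36 up to 600 nt. It was -0.14 above 600 and up to 1000 nt. Whether the counts of a complex differ from those of genes of like depth and length was not tested. The other 29 tested members did not pass, with log2 ratios from -0.41 for Cox7a2l to 1.96 for Atp5s, which rests on 19 and 3 reads.

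Scaling to spike-ins changed part of these calls. When libraries were scaled to their ERCC spike-in RNAs, which took 1.24% of reads in replicate 1 and 1.54% in replicate 2, the median log2 ratio of all genes moved to 0.33, and 20% of all genes tested were higher and 2.36% lower. Of the 45 members 20 were higher and 0 lower. The 7 members named as higher stayed higher and past the test. Of the 9 lower members none passed: Cox4i1, Cox8a, Cox6c, Cox7a2 and Uqcrq had log2 ratios above 0, and Atp5d, Atp5j, Atp5k and Atp5g2 kept ratios below 0. With DESeq2 size factors or total gene counts all 16 kept their direction and call. The ratio between Atp5a1 and Cox4i1 within a library does not depend on scaling. Atp5a1 and Cox4i1 had 4931 and 2004 reads in replicate 1, and 2437 and 1594 reads in replicate 2. Both genes were picked from the higher and the lower members named above. A larger ratio in replicate 1 was thus fixed by that choice and is no check on the calls.

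The ratios were set beside the length of the transcripts, with no test of a trend. The 7 members higher in replicate 1 had main annotated transcripts of 596 to 2900 nt, and the 9 lower members had transcripts of 371 to 1521 nt. Among genes with 50 or more reads, the median log2 ratio of the 15 members of up to 600 nt was -0.16, and that of all 187 genes of this length was -0.36. Above 600 and up to 1000 nt the medians were -0.14 for 12 members and -0.14 for 451 genes. Above 1000 and up to 2000 nt they were 0.21 for 11 members and 0.11 for 1665 genes, and above 2000 nt 0.22 for 4 members and 0.03 for 4065 genes. The medians were below 0 up to 1000 nt and above 0 beyond it, and over all genes the highest was not that of the longest transcripts. Atp5g1, with a main transcript of 596 nt, and Atp5g2, of 731 nt, lay farthest from the medians of their length among the members past the test. How far length, the mix of cell types or RNA quality contributes to these ratios was not tested. Marker genes of other cells moved with the library as well. Of all genes tested 6.21% were higher in replicate 1, and of genes with 500 or more reads 27.6%. By the same test 6 of 8 general fat genes and 4 of 5 medulla genes were higher, most of them genes of that depth. The fat list summed to 7739 CPM in replicate 1 and 5596 CPM in replicate 2, and the medulla list to 11991 and 9406 CPM. The 6 cortex genes moved both ways, with 2 higher, among them Cyp11b1 at a ratio of 1.54, and 2 lower, Star at 0.681 and Cyp21a1 at 0.889, and summed to 72277 and 71381 CPM.

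**Figure D4:**
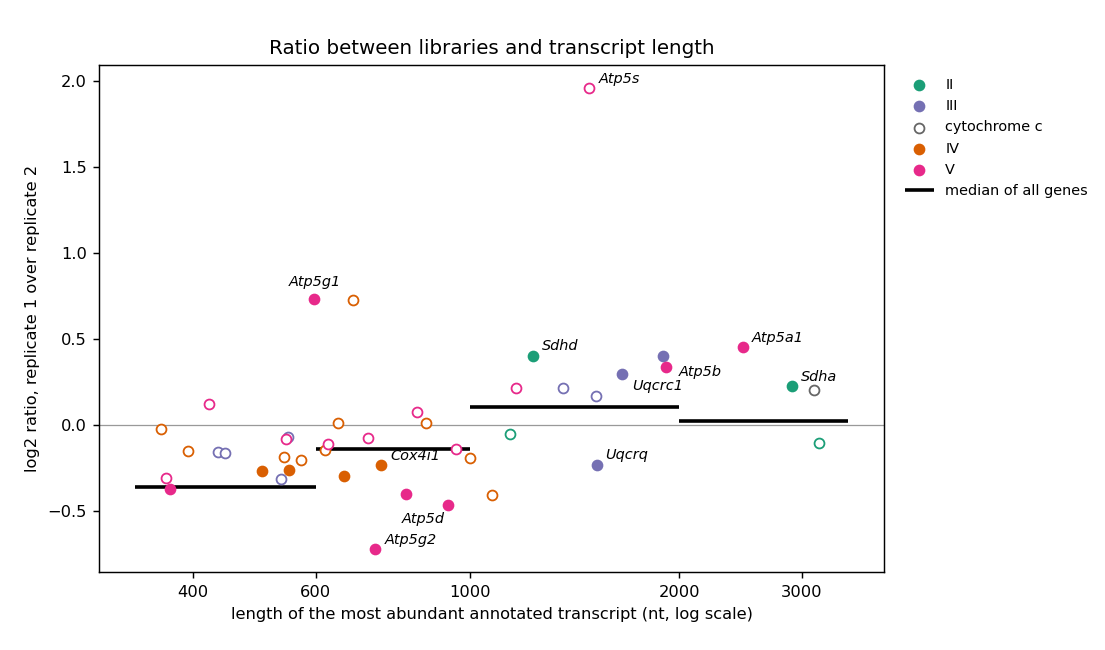
Log2 ratio of replicate 1 over replicate 2 for each tested member against the length of its most abundant annotated transcript in nt, on a logarithmic axis. Atp5f1 has no such length and is not shown. Filled points passed the binomial test, open points did not, colours give the complex, and black lines are the medians of all genes with 50 or more reads in each range of length, from -0.36 up to 600 nt to 0.11 above 1000 and up to 2000 nt and 0.03 above 2000 nt.

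Related genes outside the nuclear subunits were compared in the same test. Of the 41 genes of assembly and associated factors, 40 were tested, 2 were higher (5%) and 3 lower (7.5%) in replicate 1, with a median log2 ratio of -0.03. These shares are near the 6.21% and 6.2% of all genes tested. Uqcc1, which helps cytochrome b synthesis, was 1.53-fold higher with 328 reads in replicate 1 and 145 in replicate 2 (adjusted p = 0.000387). Tmem70, an assembly factor of ATP synthase, was 1.29-fold higher with 434 and 228 reads (adjusted p = 0.0212). The lower genes were Lrpprc, which stabilises mitochondrial mRNAs, with 171 and 199 reads, Ndufa4, which encodes a protein found in complex IV, with 908 and 722 reads, and Atpif1, the gene of the ATP synthase inhibitor, with 177 and 169 reads. The highest levels of the list were 708 ± 92.2 CPM for Ndufa4, 277.5 ± 33.1 CPM for Cox14 and 277.3 ± 34.8 CPM for Usmg5 (mean ± SD, n = 2). The 6 subunits of complexes III to V encoded in mitochondrial DNA together had 498 and 280 reads. Among them mt-Co1 had 295 and 146 reads and was 1.37-fold higher in replicate 1 (adjusted p = 0.0203), mt-Cytb had 93 and 59 reads, and mt-Atp8 had 0 in both libraries. As the read filters are not given in the sources used here, the level of these RNAs in the gland itself may be another.

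Reads of the members fell mostly on annotated transcripts. Known transcripts took 90.2% of member reads in replicate 1 and 87.6% in replicate 2, against 77.2% and 73.2% over all annotated genes. Incomplete splice matches, which carry part of an annotated transcript and include unspliced models, took 7.57% and 9.58% of member reads. Of these, 68.3% and 66.2% matched the 3' end of an annotated chain of introns, and 30.1% and 32.2% had no subtype. Models with a new combination of known splice sites took 0.399% and 0.549%, models with a new splice site took 1.16% and 1.25%, and unspliced genomic models took 0.680% and 1.07%.

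The main isoform was the annotated one in 40 of the 43 members with 20 or more reads in each library. It carried a median of 91.8% of a member's reads in replicate 1 and 90.1% in replicate 2, against 74.6% and 70.7% over the 6413 genes measured, and 33 members had more than 80% on it in both libraries. Its share differed between libraries for 4 of the 43 members by the two-sided Fisher's exact test adjusted over all genes measured, of which 2.21% passed. Members have more reads than most genes, and this test finds smaller differences where reads are many. No share among genes of like depth was taken, so members cannot be said to differ from other genes in this. All 4 had the higher share in replicate 1. At an unadjusted p under 0.05 there were 8 members.

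**Figure D5:**
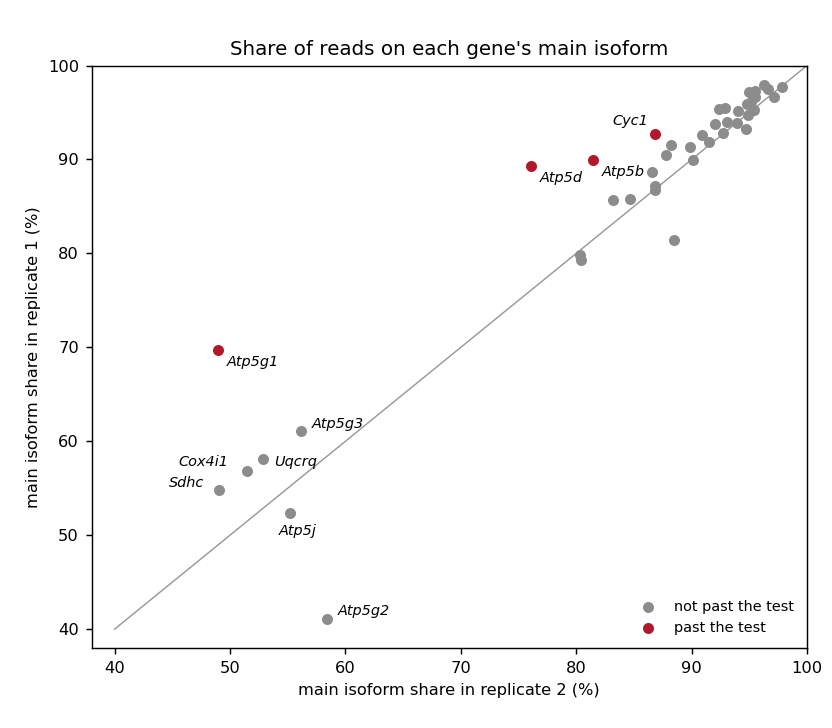
Share of a gene's reads on its main isoform in replicate 1 (vertical axis) and replicate 2 (horizontal axis), in percent, with 1 point for each of the 43 members measured and a line where both are equal. The 4 members past the test, Atp5b, Atp5d, Atp5g1 and Cyc1, lie above the line, and most members lie above 80% on both axes.

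Atp5b-201 carried 89.9% of Atp5b reads in replicate 1, with an interval of 89.1 to 90.7%. In replicate 2 it carried 81.4%, with an interval of 79.98 to 82.8% (adjusted p = 1.47e-24). A model of the last 2 exons, which lacks the start codon, carried 5.42% and 12.7% of the reads, 303 and 379. Atp5d-201 carried 89.3% and 76.1% of Atp5d reads (adjusted p = 1.94e-06). Atp5d-203, which starts 858 nt further upstream and holds the same coding sequence, had 2 reads in replicate 1 and 54 in replicate 2, or 0.351% and 10.2%. The form that took a larger share in replicate 2 was a 3' part of the transcript for Atp5b and a transcript with an upstream start for Atp5d. Cyc1-201 carried 92.7% and 86.9% of Cyc1 reads (adjusted p = 0.0111), and Cyc1-204, a transcript annotated with a retained intron and no coding sequence, carried 2.82% and 6.26%.

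Atp5g1 used 2 transcripts with the same coding sequence whose 3' ends lie 4138 nt apart. The short Atp5g1-202, of 596 nt, had 323 reads in replicate 1 and 92 in replicate 2, or 69.8% and 48.9% of the gene's reads (adjusted p = 0.000197). The long Atp5g1-201, of 4715 nt, had 95 and 79 reads, or 20.5% and 42.02%. By CPM the short form stood at 229 in replicate 1 and 98.5 in replicate 2, and the long form at 67.2 and 84.6. For Atp5g3, 2 transcripts with the same coding sequence, Atp5g3-201 and Atp5g3-202, had 348 and 228 reads and 127 and 93 reads, and the share of Atp5g3-201 did not pass the test.

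Some members had a large share of reads on short forms in both libraries. These and the forms in the next paragraphs were chosen after their values were seen, and the main isoform share of their genes did not pass the adjusted test between libraries. The shares of the other forms were not tested with adjustment. Cox4i1-204, annotated with a retained intron and no coding sequence, is 578 nt long and starts 4368 nt inside the start of Cox4i1-201. It had 776 reads in replicate 1 and 703 in replicate 2, or 38.7% and 44.1% of Cox4i1 reads, whereas the coding Cox4i1-201 had 56.8% and 51.5%. With a minimum of 50 reads in each library the share of Cox4i1-201 passed the test. For Uqcrq, an unspliced model of 198 nt (chromosome 11, 53428953 to 53429150, minus strand), which ends at the same base as the annotated Uqcrq-203, had 462 and 420 reads, or 37.4% and 42.9%. Single unspliced models took 13.3% and 11.3% of Cox7a2 reads, 17.3% and 18.3% of Cox7b reads, and 41.1% and 57.6% of Atp5g2 reads. Counts of these genes thus rest in part on reads that do not span the coding sequence.

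For 3 members the form with most reads over both libraries was not an annotated transcript. One was Atp5g2, whose unspliced models are given above. For Atp5f1, the b subunit gene of the peripheral stalk, an incomplete splice match had 496 reads in replicate 1 and 295 in replicate 2, or 93.9% and 93.1% of the gene's reads, and 0% of reads were on known transcripts. The outer ends of the model enclose the start and the stop codon. It starts 1 nt upstream of the start site that RefSeq gives in replicate 1 and 13 nt upstream in replicate 2. The annotated Atp5f1-201 starts 836 nt upstream of that site. For Atp5j a similar model, whose outer ends also enclose both codons, had 260 and 245 reads, or 52.3% and 55.2%, against 113 and 80 reads on Atp5j-201. It starts 144 nt inside the nearer of the RefSeq start sites. Whether the exons of these models hold the whole coding sequence was not checked.

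Atp5c1 and Sdhb were taken further because a splice choice within them changes coding bases. Atp5c1-203 and Atp5c1-201 differ by an exon of 37 nt (mm10, chr2:10056770-10056806, minus strand) that ends the coding sequence. The exon is known to be skipped in heart and skeletal muscle. The lines give the last coding bases of both transcripts from GENCODE M21, up to and including the stop codon, joined across introns between chr2:10056158 and chr2:10059035. Capitals mark the bases of the exon up to its stop codon.
Atp5c1-203: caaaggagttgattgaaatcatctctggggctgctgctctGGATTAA
Atp5c1-201: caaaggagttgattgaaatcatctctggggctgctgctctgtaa

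The coding sequence is 897 nt with the exon and 894 nt without it. Of reads on these 2 transcripts, 46 of 667 lacked the exon in replicate 1, or 6.90% with an interval of 5.09 to 9.09%. In replicate 2 it was 34 of 385, or 8.83% with an interval of 6.19 to 12.1%. The intervals overlap, and skeletal muscle markers stood at 1260 and 6 reads. Which cells gave the form without the exon was not tested.

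In Sdhb, a splice acceptor that is not in the annotation lies 6 nt downstream of the annotated one (chr4:140966495-140966500, plus strand), so that 6 coding bases are left out and the reading frame is kept. The line gives the bases of Sdhb-201 around the junction from GENCODE M21, joined across the intron between chr4:140961459 and chr4:140966518, with the bases left out in capitals.
Sdhb-201: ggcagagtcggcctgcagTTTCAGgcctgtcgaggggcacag

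Reads with the downstream acceptor were 52 of 844 in replicate 1, or 6.16% (interval 4.64 to 8.00%), and 32 of 573 in replicate 2, or 5.58% (interval 3.85 to 7.79%), of the reads on this form and Sdhb-201. The share was close in both libraries. Whether both parental alleles give this form was not tested.

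Upstream sequences were read for what the members share apart from their names. Nuclear respiratory chain genes are textbook targets of the factors NRF-1, of GABP (an ETS factor also called NRF-2), of ERR and of YY1. RefSeq windows on GRCm38.p6, of 250 bases before and 50 bases after a start site, were held for 36 members and searched on both strands for GCGCA and GCGC with any base between them (NRF-1), CCGGAAG (ETS), TCAAGGTCA (ERR) and AAGATGGCG (YY1). The lines give stretches that lie wholly upstream of the annotated gene, with matches in capitals. Sdha (chr13:74350281-74350353, minus strand) and Cox6a1 (chr5:115349051-115349135, minus strand) are shown for repeated NRF-1 matches, Sdhd (chr9:50603874-50603943, minus strand) for an NRF-1 and an ETS match, the second on the other strand, and Cox8b (chr7:140900447-140900556, minus strand), the tissue-restricted paralog, for none.
Sdha upstream: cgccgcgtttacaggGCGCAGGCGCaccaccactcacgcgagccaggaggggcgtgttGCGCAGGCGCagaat
Sdhd upstream: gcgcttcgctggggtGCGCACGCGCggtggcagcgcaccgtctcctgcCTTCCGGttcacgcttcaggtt
Cox6a1 upstream: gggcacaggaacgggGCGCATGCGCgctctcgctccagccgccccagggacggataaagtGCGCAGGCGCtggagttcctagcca
Cox8b upstream: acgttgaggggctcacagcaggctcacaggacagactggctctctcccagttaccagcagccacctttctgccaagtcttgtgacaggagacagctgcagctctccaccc

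The NRF-1 letters were in the windows of 10 of 36 members (27.8%), against 5.19% of all 27025 genes with windows of the same length. By windows rather than genes the shares were 25.6% and 4.60%. The ETS letters were in 12 members (33.3%), against 9.93% of all genes, the ERR letters in 2 (5.56%), against 0.466%, and the YY1 letters in 2 (5.56%), against 1.64%. No 2 matches of different motifs overlapped in a member. At least 1 match was present in 19 members (52.8%), against 15.5% of all genes. All genes here are those with RefSeq windows, whether or not they had reads. They were not matched to the members in level or base composition. Of the 5 members higher in replicate 1 that had a window, Sdha, Sdhd and Uqcrc1 held a match, and of the 6 lower ones Atp5g2, Atp5j, Atp5k and Cox8a did. Of the 12 complex IV genes with a window 9 held no match, among them the tissue-restricted Cox6b2, Cox7a1 and Cox8b but also Cox5a, Cox5b, Cox7a2, Cox7a2l, Cox7b and Cox7c. A match is a description of these letters in these windows and not of binding.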

How the data were processed

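Per the labels and the file headers, the authors deposited, for each of 2 libraries, a table of transcript models with read counts and a GTF annotation, on mm10 with GENCODE M21. The counts are whole numbers of long reads per model with no normalization, and the field names are those of TALON. The aligner, versions and read filters are not given in the sources used here. The members and gene lists were chosen with earlier results of these data known.

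Counts were summed per annotated gene, and reads of spike-ins and of genes new to the annotation were left out. Genes with 10 or more reads were compared by an exact binomial test on TMM-scaled totals, with a prior of 0.5 reads for log2 ratios and an adjusted p threshold of 0.05. A quasi-likelihood fit with a coefficient for each of the 2 libraries has no residual degrees of freedom, so edgeR's exact test with a common dispersion, estimated from an intercept-only design, was the alternative. Isoforms were matched by identifier or by intron chain, unannotated single-exon models of a gene counted as 1 isoform, and the main isoform share was compared by Fisher's exact test for genes with 20 or more reads in each library. Pseudogene copies were found with blastn. Transcript length is that of the annotation, not of the reads.

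Values in both libraries were given for the 3 highest members of each complex, every paralog, the 5 widest ratios in each direction past the binomial test, members past edgeR's test and members past the isoform test. Other members are named to complete a count or a role. Replicate 1 had 1478362 reads in all and replicate 2 had 1007541. Alternatives were other scalings, read minimums, transcript classes, totals, thinning to equal depth, other tests and leaving out each library. The steps were tested on simulated data. Tools were Python 3.11.15, pandas 2.3.3, numpy 2.4.6, scipy 1.17.1, statsmodels 0.14.6, matplotlib 3.10.9, Biopython 1.88, blastn 2.17.0, R 4.3.3, edgeR 4.0.16 and DESeq2 1.42.0.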

Additional observations from a re-analysis of the deposited data

How the results depend on the processing

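The shares of gene reads moved by more than the spread between libraries where other reads were counted. With known transcripts only, the share was 0.376% for complex II, 0.618% for complex III, 0.0414% for cytochrome c, 0.862% for complex IV, 1.27% for complex V and 3.16% for all members. With incomplete splice matches left out it was 0.339% for complex II, 0.543% for complex III, 0.0359% for cytochrome c and 2.80% for all. With genomic models left out it was 0.553% for complex III and 2.78% for all, and over all mouse reads 0.505% and 2.55%. Per kb the mean shares were 0.288% for complex II, 0.925% for complex III, 0.0185% for cytochrome c, 2.07% for complex IV, 1.73% for complex V and 5.03% for all, and the order of complexes IV and V turned. Per kb, 14 members were among the 100 highest genes.

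Between libraries, spike-in scaling gave 20 members higher and 0 lower in replicate 1. With a common dispersion estimated from the same libraries, edgeR's exact test gave 0 and 0. The other scalings, minimums, classes and thinning gave 6 to 8 higher and 8 to 11 lower. The median log2 ratio of members was -0.11 with total counts, 0.24 with spike-in totals and -0.19 with known transcripts only. Under spike-in scaling the log2 ratio turned to 0.0923 for Cox4i1, 0.0676 for Cox8a, 0.0975 for Uqcrq, 0.0299 for Cox7a2 and 0.0579 for Cox6c, and 4 more lower members no longer passed. With known transcripts only, Atp5j, Atp5g2, Sdhd and Uqcrq no longer passed. That setting also left 2 members, Atp5d and Atp5g1, past the test of main isoform share. Counting only models with 2 or more reads gave 0.303% of member reads with a new combination of splice sites and 0.735% with a new splice site. Atp5g2 held 7.70% of the reads of the c subunit genes with known transcripts only and 22.0% with the reads of its pseudogene copies, a setting chosen after seeing the data that gave Atp5g3 47.3%. The causes of these moves were not tested.

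Leaving out replicate 1 or replicate 2 leaves the other library's value. The share of all members was then 2.63% or 2.72%, and 7 or 5 members were among the 100 highest genes. No paired analysis was possible because the series holds 1 group. Depth limits the low paralogs, since 3 reads are the limit that a count of 0 allows.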
